A study of Sus scrofa with 6 samples.

Results

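The insulin and insulin-like growth factor (IGF) axis was examined in the ventricular myocardium of minipigs with chronic pressure overload through 10 genes chosen by symbol: the ligands IGF1 and IGF2, the receptors INSR and IGF1R, the receptor substrates IRS1 and IRS2, and the binding proteins IGFBP3, IGFBP4, IGFBP5 and IGFBP7. Of these 10 genes, 8 were listed by symbol among the 13288 genes of the table, and IGF2 and IGFBP3 were not. All 8 passed the filter on low values. RNA was sequenced from male Tibetan minipigs whose hearts were collected 12 weeks after surgery, 3 with sham surgery and 3 with descending aortic constriction (DAC). Sham animals had the thoracotomy without constriction, DAC animals had the descending aorta narrowed by sutures, and the labels name no other treatment and no genetic alteration in either group. The ages of the minipigs are not given in the sources used here, the labels call the tissue ventricular without naming the chamber, and the single breed and the surgical constriction limit what the groups stand for. Each sample came from 1 minipig, and the samples are called sham replicates 1, 2 and 3 and DAC replicates 4, 5 and 6.

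Insulin and the IGFs are peptide hormones that act through a pair of related receptor tyrosine kinases, the insulin receptor and the type 1 IGF receptor. Activated receptors phosphorylate the IRS proteins, which recruit PI3-kinase, and the resulting lipid signal activates the kinase AKT, which acts on glucose transport, protein synthesis and the FOXO transcription factors. IGF-binding proteins hold the IGFs in blood and tissue, and proteases such as PAPP-A release them again. In the heart the axis is known for physiological growth of cardiomyocytes, their survival and their uptake of glucose.

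The deposited values are FPKM, fragments scaled for the length of the transcript and the size of the library, so levels of different genes can be compared. How many reads stand behind a value is unknown, so the spread between minipigs is the measure of precision. Groups were compared on log2(FPKM + 1) with limma, a linear model that shares the variance between genes, and for genes of low FPKM a fold change on this scale is understated. A gene was called at an unadjusted P under 0.05. The study's own criterion was also an unadjusted P. By this rule 8.51% of the 11029 genes tested were called, 3.25% higher and 5.27% lower in DAC, and no gene had an adjusted P under 0.05. The sum of FPKM was from 281377 to 308771 per sample, and mitochondrially encoded genes held from 24.0% to 25.3% of it in sham and from 27.1% to 32.8% in DAC samples. The 8 cardiomyocyte markers listed by symbol (MYH6 and TTN were not) summed to between 13596 and 16649 FPKM in every sample, with MYH7, the slow myosin heavy chain, at 1903 FPKM in the mean of the sham group.

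None of the 8 members was called (0 of 8, against 8.51% of all genes tested), by limma at an unadjusted P under 0.05 or after Benjamini-Hochberg adjustment, and the groups overlapped for every member (DAC lay wholly above sham for 6.01% and wholly below it for 8.91% of all genes tested). On the log2 scale 4 members had a higher mean in DAC and 4 a lower one. Over the 8 members the median log2 fold change was -0.0053, against -0.016 over all genes tested. The widest estimates were 0.34 for IGF1 and -0.23 for IGFBP4.

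**Figure D1:**
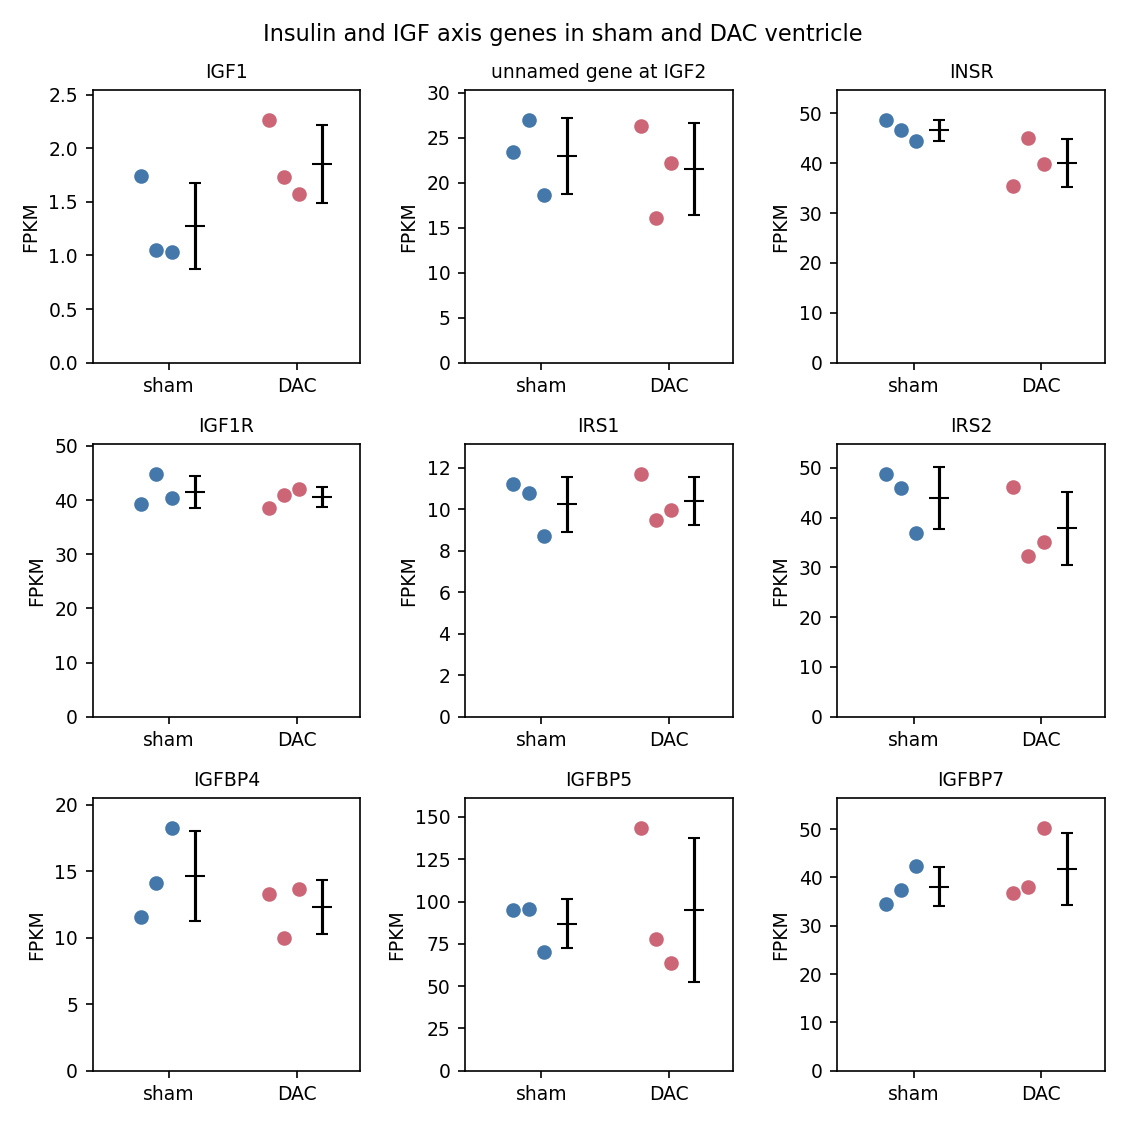
FPKM (y axis, from 0) of the 8 members and of the unnamed gene at the IGF2 position in 3 sham (blue) and 3 DAC (red) minipigs, each point 1 minipig, with the mean and SD as a black bar. The groups overlap in every panel, and the DAC mean of IGFBP5 is carried by 1 minipig at 143.7 FPKM.

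IGF1 (ENSSSCG00000000857, chromosome 5 from 81775970 to 81848037 on susScr11, plus strand), a growth factor made in liver and in many other tissues, had the lowest level of the members. Its level was 1.74, 1.05 and 1.04 FPKM in sham replicates 1 to 3 and 2.27, 1.73 and 1.57 FPKM in DAC replicates 4 to 6. DAC replicate 4 was highest, both sham replicates 2 and 3 lay below all DAC samples, and sham replicate 1 lay among the DAC samples. The means were 1.28 ± 0.405 FPKM (SD, n = 3) in sham and 1.86 ± 0.364 FPKM (SD, n = 3) in DAC. This gave a log2 fold change of 0.34 (standard error, SE, 0.17, 95% confidence interval -0.053 to 0.72, unadjusted P = 0.0809 and adjusted P = 0.612 from limma). Without sham replicate 1 it was 0.48 and IGF1 was called (unadjusted P = 0.0203 from limma). The sum of 10 fibroblast markers was from 713 to 835 FPKM in sham and from 936 to 1078 FPKM in DAC. The sum includes the matrix genes COL1A1 and COL1A2. COL1A1 was at 94.0 FPKM in the sham mean and 165.4 FPKM in the DAC mean, and COL1A2 at 73.3 and 110.3 FPKM. Of the 10 markers, 8 had a higher and 2 a lower mean log2 level in DAC. The part of this sum in the level of IGF1 was not tested.

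No row carried the symbol IGF2, the growth factor that is imprinted in mammals. The gene ENSSSCG00000035293, listed without a symbol on chromosome 2 from 1469132 to 1496442 (minus strand), spans the whole RefSeq position of IGF2 on Sscrofa11.1, from 1469183 to 1496417, and 99.7% of its length lies within that position. It is described beside the members and is not counted with them, since the match was made by position after the table had been seen. Its level was 23.4, 27.0 and 18.6 FPKM in sham replicates 1 to 3 and 26.3, 16.1 and 22.2 FPKM in DAC replicates 4 to 6. The samples of both groups were interleaved, with DAC replicate 5 lowest. Its log2 fold change was -0.10 (SE 0.21, 95% confidence interval -0.58 to 0.38, adjusted P = 0.904 from limma). In FPKM it exceeded IGF1 in every sample, by 13.4 to 25.8 times in sham and by 9.30 to 14.2 times in DAC samples. No listed gene overlapped the RefSeq position of IGFBP3 on chromosome 18 from 50002921 to 50009425, so IGFBP3 was not analysed here.

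INSR (ENSSSCG00000013566, chromosome 2 from 71797204 to 71936139, plus strand), the insulin receptor, was at 48.7, 46.7 and 44.5 FPKM in sham replicates 1 to 3 and at 35.4, 45.1 and 39.9 FPKM in DAC replicates 4 to 6. DAC replicates 4 and 6 lay below all sham samples, and DAC replicate 5 lay just above sham replicate 3. The means were 46.6 ± 2.11 FPKM (SD, n = 3) and 40.1 ± 4.85 FPKM (SD, n = 3). The log2 fold change was -0.22 (SE 0.12, 95% confidence interval -0.50 to 0.060, unadjusted P = 0.106 and adjusted P = 0.642 from limma). Without DAC replicate 5 it was -0.30 and INSR was called lower (unadjusted P = 0.0368 from limma).

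IGF1R (ENSSSCG00000030560, chromosome 1 from 137387925 to 137690666, minus strand), the type 1 IGF receptor, was at 39.3, 44.9 and 40.3 FPKM in sham and at 38.5, 41.0 and 42.1 FPKM in DAC replicates 4 to 6. The groups overlapped almost fully, and the coefficient of variation was 7.12% in sham and 4.53% in DAC, against medians of 12.2% and 14.7% over all genes tested. Its log2 fold change was -0.033 (SE 0.10, 95% confidence interval -0.27 to 0.21, adjusted P = 0.943 from limma), and the sign turned after quantile normalization (0.022) and with the mitochondrially encoded genes left out (0.011). On the scale of FPKM + 1, the interval runs from 0.828 to 1.15 times the sham level.

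The transcripts of both receptors were at similar FPKM, and receptor protein was not measured. IGF1R was below INSR in every sham sample and in DAC replicate 5, and above it in DAC replicates 4 and 6. The ratio of IGF1R to INSR in FPKM was 0.807, 0.962 and 0.906 in sham and 1.09, 0.909 and 1.06 in DAC replicates 4 to 6. The ratio overlapped between the groups, with an exact two-sided permutation P of 0.2. IGF2R, the receptor that clears IGF2, and IDE, the protease that degrades insulin, were at 21.0 and 7.79 FPKM in the sham mean and at 20.2 and 7.36 FPKM in the DAC mean. None of the 4 tested genes for receptors and ligand clearance was called, and the log2 fold change of IDE, the listed gene with the smallest P outside the members, was -0.067 (adjusted P = 0.885 from limma).

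IRS1 (ENSSSCG00000025729, chromosome 15 from 128245846 to 128308335, minus strand), the docking protein named for the insulin receptor, was at 11.2, 10.8 and 8.71 FPKM in sham and at 11.7, 9.48 and 9.97 FPKM in DAC replicates 4 to 6. The ranges almost coincided. For IRS1 the log2 fold change was 0.022 (SE 0.13, 95% confidence interval -0.29 to 0.34, adjusted P = 0.972 from limma).

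IRS2 (ENSSSCG00000034763, chromosome 11 from 76626179 to 76653881, minus strand), its paralog, was at 48.8, 45.9 and 37.0 FPKM in sham and at 46.2, 32.3 and 35.0 FPKM in DAC replicates 4 to 6. DAC replicates 5 and 6 lay below all sham samples, while DAC replicate 4 lay between sham replicates 1 and 2. The means were 43.9 ± 6.18 FPKM (SD, n = 3) and 37.8 ± 7.38 FPKM (SD, n = 3), and the log2 fold change was -0.22 (SE 0.17, 95% confidence interval -0.62 to 0.18, adjusted P = 0.729 from limma). Without DAC replicate 4 it was -0.37 and IRS2 was called lower (unadjusted P = 0.0491 from limma).

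The substrates varied together between minipigs, and their ratio varied less than either gene in the sham group. IRS2 exceeded IRS1 by 4.35, 4.27 and 4.24 times in sham replicates 1 to 3, and by 3.95, 3.41 and 3.51 times in DAC replicates 4 to 6. All DAC ratios lay below all sham ratios, with means of 3.62 ± 0.288 (SD, n = 3) and 4.29 ± 0.0546 (SD, n = 3). The exact two-sided permutation P was 0.1, the smallest that 3 minipigs against 3 allow, and 0.2 after Benjamini-Hochberg adjustment over the 3 ratios computed. The ratio was chosen after the values of both genes had been seen.

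**Figure D2:**
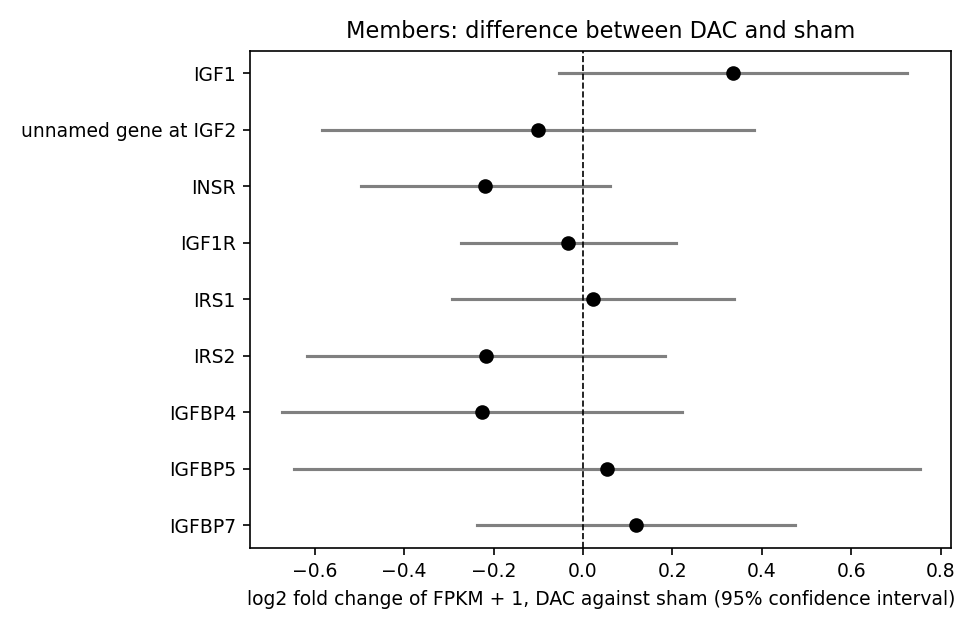
Log2 fold change of FPKM + 1 in DAC against sham (x axis) for each member and the unnamed gene at the IGF2 position (y axis), with the 95% confidence interval from limma as a line. Every interval includes 0, and the intervals are narrowest for IGF1R (-0.27 to 0.21) and widest for IGFBP5 (-0.65 to 0.75).

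IGFBP5 (ENSSSCG00000025924, chromosome 15 from 118857479 to 118878522, minus strand), a binding protein that also attaches to extracellular matrix, was the most abundant member, at the 97.4th percentile of all listed genes by mean FPKM. Its level was 95.02, 95.7 and 70.1 FPKM in sham replicates 1 to 3 and 143.7, 77.9 and 63.6 FPKM in DAC replicates 4 to 6. The DAC group held both the highest and the lowest sample, and its coefficient of variation was 44.9% against 16.8% in sham. The log2 fold change was 0.053 (SE 0.30, 95% confidence interval -0.65 to 0.75, adjusted P = 0.971 from limma). Without DAC replicate 4 it was -0.29 (unadjusted P = 0.165 from limma), and without sham replicate 3 it was -0.093, so the sign rests on single minipigs.

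IGFBP7 (ENSSSCG00000008913, chromosome 8 from 56279894 to 56357835, minus strand), a secreted protein of the vessel wall with low affinity for IGFs, was at 34.5, 37.3 and 42.4 FPKM in sham and at 36.7, 38.1 and 50.3 FPKM in DAC replicates 4 to 6. DAC replicate 6 was highest and the other DAC samples lay inside the sham range. For IGFBP7 the log2 fold change was 0.12 (SE 0.15, 95% confidence interval -0.24 to 0.47, adjusted P = 0.845 from limma), and it was -0.021 without DAC replicate 6. The annotated position of IGFBP7 overlaps that of POLR2B, and the sources used here do not give how shared reads were assigned.

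IGFBP4 (ENSSSCG00000017472, chromosome 12 from 21961645 to 21980211, minus strand), an inhibitor of IGF action, was at 11.5, 14.1 and 18.3 FPKM in sham and at 13.3, 9.96 and 13.6 FPKM in DAC replicates 4 to 6. Sham replicate 3 was above and DAC replicate 5 below the rest, and the other samples of both groups were interleaved. The log2 fold change was -0.23 (SE 0.19, 95% confidence interval -0.67 to 0.22, adjusted P = 0.754 from limma).

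In sham hearts the order of the members by mean FPKM was IGFBP5, INSR, IRS2, IGF1R, IGFBP7, IGFBP4, IRS1 and IGF1. The ranges of INSR, IRS2, IGF1R and IGFBP7 overlapped from each neighbour to the next, so their order was within the spread, whereas IGFBP5 lay above and IGFBP4, IRS1 and IGF1 lay below these genes without overlap. In DAC hearts the same genes formed the middle group in another order, IGFBP7, IGF1R, INSR and IRS2, and the ranges of IGFBP4 and IRS1 also overlapped.

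Sample by sample, the members did not move as a block. DAC replicate 4 was the highest sample for IGFBP5, IGF1 and IRS1 and the lowest for INSR and IGF1R. IRS1, IRS2 and the unnamed gene at the IGF2 position were all above their own means in sham replicates 1 and 2, and below them in sham replicate 3 and DAC replicate 5. IGFBP4 and IGFBP7 were highest in sham replicate 3 and DAC replicate 6, respectively.

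**Figure D3:**
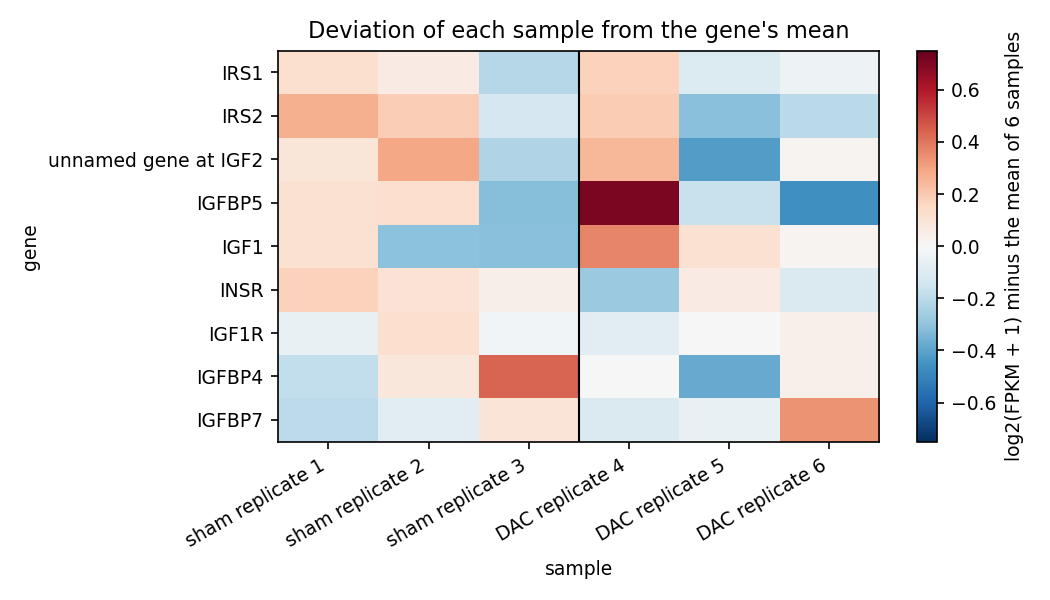
Deviation of each sample (x axis) from the gene's mean over 6 samples in log2(FPKM + 1) (colour, red above and blue below the mean) for the members and the unnamed gene at the IGF2 position (y axis), with sham left of the line and DAC right of it. The deepest colours are those of IGFBP5, at 0.71 in DAC replicate 4 and -0.46 in DAC replicate 6, and no gene has a single colour on each side of the line.

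The other genes of the pathway were taken from lists by role. Of 98 pathway genes, members included, 81 were tested and 9 were called (11.1% against the background of 8.51%), 1 higher and 8 lower in DAC. The median log2 fold change of the 81 genes was -0.065. The groups did not overlap for 14 of the 81 genes, where the share over all genes tested was 14.9%. DAC lay wholly below sham for 11 of the 81 and wholly above it for 3, where the shares over all genes were 8.91% and 6.01%.

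IGFBP2, an IGF carrier of blood and tissue and not one of the 10 genes chosen as members, was the binding protein with the smallest P. Its level was 8.39, 6.73 and 14.8 FPKM in sham replicates 1 to 3 and 4.08, 1.23 and 3.07 FPKM in DAC replicates 4 to 6. All DAC samples lay below all sham samples, with means of 9.98 ± 4.28 FPKM (SD, n = 3) in sham and 2.79 ± 1.45 FPKM (SD, n = 3) in DAC. IGFBP2 fell by 1.55 on the log2 scale (SE 0.36, unadjusted P = 0.0036 and adjusted P = 0.462 from limma), and it was called under all 14 alternatives, with P from 0.00275 to 0.0302. Of the other genes in this list, IGFBP6 was at 12.01 FPKM in the sham and 9.29 FPKM in the DAC mean, and IGFALS, the acid-labile subunit of the circulating IGF complex, was at 1.36 and 1.002 FPKM. In all, 1 of 6 tested genes for binding proteins was called. The summed FPKM of IGFBP2, IGFBP4, IGFBP5, IGFBP6 and IGFBP7 was 162 ± 2.43 (SD, n = 3) in sham and 161 ± 41.9 (SD, n = 3) in DAC, of which IGFBP2 made 6.18% ± 2.65 (SD, n = 3) and 1.68% ± 0.670 (SD, n = 3).

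PAPPA, the protease that cleaves IGFBP4, and its inhibitor STC1, a stanniocalcin, were called in opposite directions. PAPPA was at 0.876, 1.08 and 1.26 FPKM in sham and at 1.91, 1.54 and 1.36 FPKM in DAC replicates 4 to 6, and all DAC samples lay above all sham samples. PAPPA rose by 0.33 on the log2 scale (SE 0.13, adjusted P = 0.584 from limma), but was not called without sham replicate 1 or 2 or without DAC replicate 4 or 5, where the log2 fold change was 0.26, 0.34, 0.25 and 0.34. PAPPA was also not called after quantile normalization (0.31) or with sample weights (0.31), which made 6 of 13 alternatives without a call. STC1 was at 11.6, 16.2 and 25.0 FPKM in sham and at 1.36, 1.09 and 4.88 FPKM in DAC replicates 4 to 6. STC1 fell by 2.53 on the log2 scale (SE 0.43, adjusted P = 0.335 from limma), the lowest log2 fold change of all 11029 genes tested. STC2, the related stanniocalcin, was at 21.4 FPKM in the sham and 14.7 FPKM in the DAC mean and was not called. Of 5 tested genes in this list, 1 was called higher and 1 lower.

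Among the receptor substrates and adaptors, 2 of 13 tested genes were called, both lower. GRB2, the adaptor that links receptors to RAS, was at 22.5, 21.2 and 23.6 FPKM in sham and at 16.8, 15.8 and 16.0 FPKM in DAC replicates 4 to 6. The groups of GRB2 were well apart, and it fell by 0.44 on the log2 scale (SE 0.097, adjusted P = 0.419 from limma), a call that all 14 alternatives also made. SH2B2, an adaptor of the insulin receptor, was at 4.67 FPKM in the sham and 2.77 FPKM in the DAC mean, with overlapping groups and a log2 fold change of -0.60. It was not called without sham replicate 1 or 2 or without DAC replicate 5 or 6, where the log2 fold change was -0.53, -0.47, -0.37 and -0.65. With all 6 samples kept, SH2B2 was also not called with mitochondrially encoded genes left out (-0.56), with the variance of each gene on its own or with sample weights (-0.54), which made 7 of 13 alternatives without a call. The position of SH2B2 overlaps that of CUX1.

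**Figure D4:**
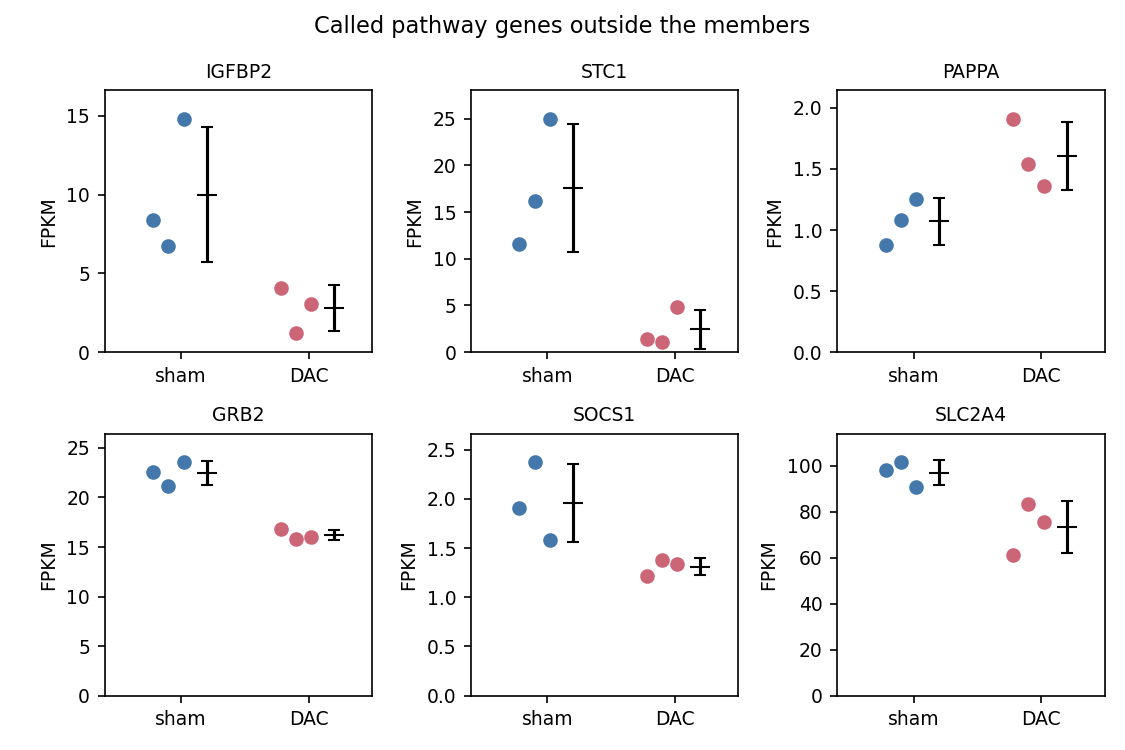
FPKM (y axis, from 0) of 6 called pathway genes that are not members in 3 sham (blue) and 3 DAC (red) minipigs, each point 1 minipig, with the mean and SD as a black bar. In all 6 panels the groups do not overlap, with PAPPA above and IGFBP2, STC1, GRB2, SOCS1 and SLC2A4 below the sham samples in DAC. Of the 9 called genes, SH2B2, TXNIP and BCL6 are not shown, and the groups of SH2B2 overlap. The genes shown were already called, and the groups did not overlap for 14.9% of all genes tested.

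Among inhibitors of the receptors, substrates and lipid signal, SOCS1, which blocks receptor and cytokine signaling, was called lower as 1 of 11 tested genes. Its level was 1.91, 2.38 and 1.59 FPKM in sham and 1.22, 1.37 and 1.34 FPKM in DAC replicates 4 to 6, a log2 fold change of -0.35 (adjusted P = 0.564 from limma). The DAC samples lay close together below the sham samples. It was called without sham replicate 3, and missed the threshold when any other sample was left out, with log2 fold changes from -0.37 to -0.25. GRB10, GRB14 and PTPN1, which restrain the insulin receptor, were at 20.4, 15.1 and 11.6 FPKM in the sham mean and at 18.2, 14.3 and 11.7 FPKM in the DAC mean.

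For PI3-kinase, PDK1 and AKT, none of 9 tested genes was called. PIK3R3, a regulatory subunit of PI3-kinase, had the smallest P, and its level was 4.01, 4.29 and 3.90 FPKM in sham and 3.00, 0.839 and 3.14 FPKM in DAC replicates 4 to 6. Its log2 fold change was -0.70 (adjusted P = 0.592 from limma), DAC replicate 5 being far below the others. It was called without DAC replicate 4, 5 or 6, with log2 fold changes of -0.88, -0.31 and -0.90, and with all 6 samples after median scaling (-0.68) and quantile normalization (-0.68). AKT1 and AKT2 were at 43.8 and 25.8 FPKM in the sham mean and at 33.9 and 24.7 FPKM in the DAC mean.

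Of 16 tested AKT substrates, mTOR complex genes and glucose transporters, 1 was called. SLC2A4, the insulin-responsive glucose transporter GLUT4, was at 98.2, 101.6 and 91.0 FPKM in sham and at 61.2, 83.4 and 75.6 FPKM in DAC replicates 4 to 6. All DAC samples of SLC2A4 lay below all sham samples. It fell by 0.41 on the log2 scale (SE 0.14, adjusted P = 0.531 from limma), and it was not called without sham replicate 1 (-0.40) or sham replicate 2 (-0.37). FOXO1 and FOXO3, the factors that AKT holds out of the nucleus, were at 15.1 and 32.1 FPKM in the sham mean and at 14.8 and 30.9 FPKM in the DAC mean.

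INSR and IRS2 belong to the genes known to rise when insulin signaling is low, of which 13 were tested. Of these, 11 had a lower mean log2 level in DAC, against 5884 of all 11029 genes tested (53.4%). With mitochondrially encoded genes left out the count was again 11 of 13, against 45.7% of all genes, and over the alternatives that kept all 13 genes it was 10 or 11. The list includes the members INSR and IRS2 and was chosen with earlier results of these data known. These counts are therefore no test of insulin signaling, which was not tested. In the list 2 genes were called, both lower (15.4% against 5.27% of all genes called lower). TXNIP, an inhibitor of thioredoxin and of glucose uptake, was at 418, 392 and 401 FPKM in sham and at 320, 349 and 308 FPKM in DAC replicates 4 to 6, a log2 fold change of -0.31 (adjusted P = 0.522 from limma). BCL6, a transcriptional repressor, was at 16.8 FPKM in the sham and 13.0 FPKM in the DAC mean, a log2 fold change of -0.36 (adjusted P = 0.584 from limma). TXNIP was not called without sham replicate 1 or 3 or DAC replicate 6, with log2 fold changes of -0.28, -0.31 and -0.27, nor after quantile normalization (-0.18). BCL6 was not called without sham replicate 1 or 3 or DAC replicate 5 or 6, with log2 fold changes of -0.28, -0.38, -0.37 and -0.24. With all 6 samples kept, BCL6 also missed the threshold after median scaling (-0.34), after quantile normalization (-0.31), with mitochondrially encoded genes left out (-0.32) and with the variance of each gene on its own, so it was not called in 8 of 14 alternatives. PDK4, which switches off glucose oxidation, and FBXO32, a muscle ubiquitin ligase, were at 100.7 and 116.7 FPKM in the sham mean and at 72.8 and 104.2 FPKM in the DAC mean, and neither was called.

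For ligands and growth hormone input, none of 5 tested genes was called, and all 5 had a higher mean log2 level in DAC, against 5145 of all 11029 genes tested. Without sham replicate 2 or DAC replicate 6, 3 of the 5 did. The list includes the member IGF1, and for GHR and STAT5B the log2 fold change was only 0.0082 and 0.0084. GHR, the growth hormone receptor, was at 14.7 FPKM in the sham mean and 14.8 FPKM in the DAC mean. JAK2, its kinase, was at 1.30, 1.46 and 1.29 FPKM in sham and at 1.98, 2.10 and 1.54 FPKM in DAC replicates 4 to 6. All DAC samples of JAK2 lay above all sham samples, the log2 fold change was 0.29 (adjusted P = 0.592 from limma), and JAK2 was called in 4 of 13 alternatives: without DAC replicate 6 (0.37) and, with all 6 samples, with no filter, with mitochondrially encoded genes left out (0.31) and with the variance of each gene on its own. Insulin itself, INS, was not listed. IGF2BP2, an RNA-binding protein named for IGF2 mRNA, was at 2.60 FPKM in the sham and 3.24 FPKM in the DAC mean (adjusted P = 0.713 from limma) and was not called.

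**Figure D5:**
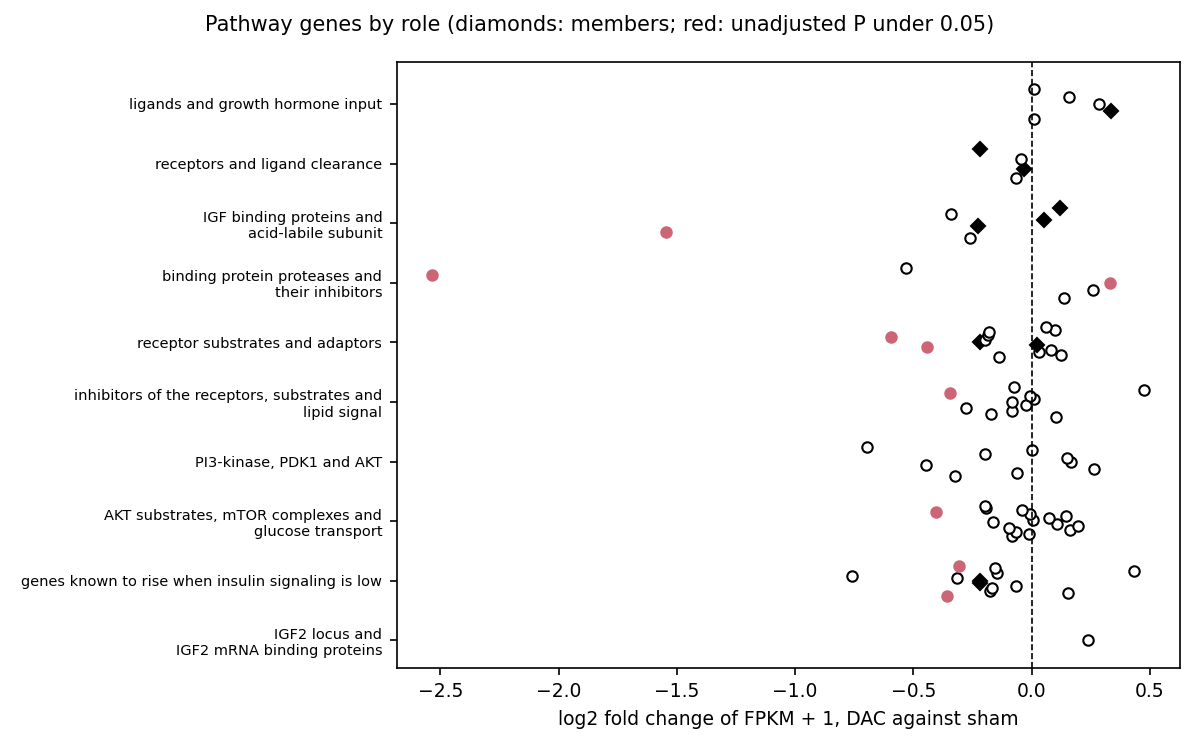
Log2 fold change of FPKM + 1 in DAC against sham (x axis) of the tested genes of each role list (y axis), with members as black diamonds, other genes as circles, and genes called at an unadjusted P under 0.05 in red. A gene on several lists appears in each, the members lie between -0.23 and 0.34, and the lowest points are STC1 (-2.53) and IGFBP2 (-1.55).

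Markers of cell types that the tissue can hold were taken from further lists, and in bulk tissue fewer cells of a type and less RNA per cell cannot be told apart. Of 48 markers tested, 10 were called (20.8%, against 8.51% of all genes tested), 6 higher and 4 lower, where 3.25% of all genes were called higher and 5.27% lower. The adjusted P of the called markers given with their levels here was from 0.337 to 0.585 (limma). Of 10 fibroblast markers, 4 were called higher, COL1A1, COL1A2, COL3A1 and LUM, all genes of the extracellular matrix. COL1A2 was at 73.3 FPKM in sham and 110.3 FPKM in DAC and COL1A1 at 94.0 and 165.4 FPKM, the chains of type I collagen. PDGFRA, DCN, TCF21, DPT, FBLN1 and GSN were not called. Of 10 endothelial markers, 1 was called higher and 2 lower. KDR, a receptor for VEGF, was called higher at 12.5 and 19.4 FPKM (log2 fold change 0.60), but not without sham replicate 1 (0.57) or 3 (0.43) or DAC replicate 4 (0.64) or 6 (0.41), nor with the variance of each gene on its own. CLDN5, a tight junction protein, was at 13.1 and 4.93 FPKM in the group means, and VWF, the von Willebrand factor, at 44.0 and 31.1 FPKM, both called lower. The summed endothelial markers were from 181 to 258 FPKM in sham and from 158 to 235 FPKM in DAC. Of 10 smooth muscle and pericyte markers, CNN1, a calponin, was called higher (4.39 and 7.20 FPKM), and it was not called without sham replicate 1 (0.49) or 2 (0.54) or DAC replicate 5 (0.43, each a log2 fold change), nor with the variance of each gene on its own. Their sum was from 206 to 242 FPKM in sham and from 229 to 262 FPKM in DAC. Of 8 tested leukocyte markers, 5 had a higher mean log2 level in DAC and 3 a lower one. The only 1 called was CD163, a macrophage receptor, which was lower (11.2 and 8.05 FPKM). The summed leukocyte markers were from 65.0 to 70.8 FPKM in sham and from 55.7 to 80.5 FPKM in DAC. Of 8 cardiomyocyte markers, RYR2, the calcium release channel, was called lower (366 and 274 FPKM), and it was not called without sham replicate 1 (-0.30) or 3 (-0.37) or DAC replicate 5 (-0.30) or 6 (-0.43, each a log2 fold change). RYR2 was also not called after quantile normalization (-0.29), with mitochondrially encoded genes left out (-0.37) or with the variance of each gene on its own, which made 7 of 14 alternatives without a call. The adipocyte markers ADIPOQ and CIDEC were under the filter, PLIN1 and LEP were not listed, and the 4 listed markers summed to between 9.02 and 17.9 FPKM in sham and between 12.5 and 23.1 FPKM in DAC. The part of these marker levels in the values of the members and of IGFBP2 was not tested.

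On the chromosome, IGFBP5 and IGFBP2 are neighbours: IGFBP2 lies on chromosome 15 from 118822047 to 118850976 on the plus strand, 6502 bases from IGFBP5 on the minus strand. IGFBP5 had a log2 fold change of 0.053 and IGFBP2 of -1.55, while TNS1, the neighbour of IGFBP5 on its other side, was at 255 FPKM in sham and 246 FPKM in DAC. Beside IGFBP7, NOA1 was called lower (2.76 and 1.96 FPKM in the group means), and ADGRL3 was under the filter. The unnamed gene at the IGF2 position lies between LSP1, called higher at 8.51 and 12.2 FPKM, and CD81, at 71.0 and 59.6 FPKM. The neighbours of INSR were ARHGEF18 (2.49 and 2.21 FPKM) and VAV1 (1.33 and 1.86 FPKM), and those of IGF1R were ACTC1 (1121 and 1511 FPKM) and TTC23 (3.89 and 4.42 FPKM). NUP37 (1.38 and 1.30 FPKM) lies beside IGF1, and the neighbours of IRS1 were DOCK10 (1.57 and 1.63 FPKM) and RHBDD1 (1.75 and 1.71 FPKM). COL4A1 (76.0 and 85.2 FPKM) and TNFSF13B, under the filter, lie beside IRS2, and SMARCE1 (14.9 and 15.3 FPKM) and TOP2A, under the filter, lie beside IGFBP4. Neighbours here are the nearest genes with a symbol that do not overlap the member, at any distance, and some lie far away. ADGRL3 lies 4272281 bases from IGFBP7, DOCK10 1534314 from IRS1 and ACTC1 1101379 from IGF1R. TNS1 lies 1071005 bases from IGFBP5 and TNFSF13B 993137 from IRS2. Of these neighbours, IGFBP2, NOA1 and LSP1 were called. NOA1 (log2 fold change -0.34) was not called without sham replicate 1 (-0.27) or 3 (-0.34) or DAC replicate 4 (-0.35) or 5 (-0.30). LSP1 (0.48) was not called without sham replicate 1 (0.35) or 3 (0.45) or DAC replicate 5 (0.49) or 6 (0.36), nor with the variance of each gene on its own.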

How the data were processed

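Ventricular RNA of 3 sham and 3 DAC minipigs was sequenced by the authors as paired-end reads on an Illumina HiSeq platform from NEBNext Ultra libraries, and no samples were pooled. The authors deposited FPKM per gene, named so in the file header. The submitters' processing notes name HISAT2 and susScr11, without roles, and the quantification program and its handling of strand and shared reads are not given in the sources used here. Every listed gene reaches 0.500 FPKM in at least 1 sample. The depth is unknown: at most 6 of at least 6520 low genes shared a ratio between 2 samples, so no steps of whole reads were seen.

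Symbols came from the table, and 520 of 2440 genes without one were given a symbol by gene identifier. Of 10144 genes with a symbol also placed in RefSeq (Sscrofa11.1), 10137 overlapped it in position. The 11029 genes that reached 1 FPKM in 3 or more samples were compared on log2(FPKM + 1) in R 4.3.3 with limma 3.58.1, using its moderated test with a variance trend, no covariates, and Benjamini-Hochberg adjustment over all genes tested. Ratios between members were compared by an exact permutation test. Figures used Python 3.11.15 and matplotlib 3.10.9. The fit was tested on simulated data. No batch is named in the labels.

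The members, lists and alternatives were chosen with earlier results of these data known. The genes named are the members, up to 4 called genes of each role list with the smallest P or else the gene with the smallest P, up to 2 called markers of each list, and the nearest genes with a symbol on each side of a member; other genes named, with their values, were chosen after these were seen. As alternatives, the comparison was run with no filter, a minimum of 5 FPKM, a pseudocount of 0.1, median scaling, quantile normalization, mitochondrially encoded genes left out, the variance of each gene on its own, sample weights, and each sample left out in turn. Some genes of these lists and positions are not reported here.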

Additional observations from a re-analysis of the deposited data

How the results depend on the processing

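None of the members was called under any of the 8 alternatives that kept all 6 samples. With 1 sample left out in turn, the number of members called was from 0 to 1: IGF1 without sham replicate 1, IRS2 without DAC replicate 4 and INSR without DAC replicate 5. Of 111 values of members recomputed, 99 kept their direction and side of the threshold, 3 became called and 9 changed sign. IGF1R changed sign when quantiles were equalized (0.022) or mitochondrial genes were removed (0.011). When samples were left out singly, the log2 fold change was from -0.069 to 0.023 for IGF1R, from -0.29 to 0.30 for IGFBP5, from -0.021 to 0.20 for IGFBP7, from -0.079 to 0.087 for IRS1 and from -0.25 to 0.084 for the unnamed gene at the IGF2 position; the cause was not tested. A minimum of 5 FPKM left IGF1 untested. The pathway genes called numbered 9, and from 5 (without sham replicate 1) to 10 with 1 sample left out; 8 of the 9 were lower, and 6 of 8 with mitochondrially encoded genes left out or with the variance of each gene on its own. Of the 939 genes called, 61.9% were lower, against 44.9% of 907 with mitochondrially encoded genes left out. A minimum of 5 FPKM gave 579 calls among the 6271 genes it kept, 71.5% of them lower, and leaving out 1 sample gave from 600 (without sham replicate 1) to 1029. No paired analysis was made, because the groups were different minipigs. The study assigned minipigs at random to larger groups and excluded 1 animal per group. How the sequenced minipigs were picked from the rest is not given in the sources used here. Depth is unknown, so for IGF1, PAPPA, SOCS1 and JAK2, all under 3 FPKM, counting error cannot be separated from the spread between minipigs.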

Other observations

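The region around the unnamed gene at the IGF2 position holds further genes that are imprinted in mammals. CDKN1C, an inhibitor of the cell cycle on chromosome 2 from 2019490 to 2021853, was at 19.2, 24.0 and 11.98 FPKM in sham replicates 1 to 3 and at 20.7, 7.65 and 14.5 FPKM in DAC replicates 4 to 6. The order of the 6 samples was the same for CDKN1C and the unnamed gene, from sham replicate 2 as the highest through DAC replicate 4, sham replicate 1, DAC replicate 6 and sham replicate 3 to DAC replicate 5 as the lowest. Of the 30 other listed genes within 1 Mb, CDKN1C was the only 1 with this order. Over the 11028 other genes tested, 10 had it (0.0907%). CDKN1C was picked out because of this match, so these counts are no test of it. PHLDA2, a placental growth restrictor nearby, was at 5.85, 6.33 and 3.50 FPKM in sham and at 6.04, 4.29 and 4.16 FPKM in DAC, with the same 3 samples highest. A long non-coding gene without a symbol (ENSSSCG00000050649, from 1381838 to 1384446) was at 13.9, 19.3 and 8.20 FPKM in sham and at 8.46, 18.3 and 9.67 FPKM in DAC, in another order. These genes were chosen after their values were seen, and none of these 4 genes was called between DAC and sham. Other genes within 1 Mb of the unnamed gene were called. GATD1, PNPLA2, TOLLIP, MOB2, CTSD, KCNQ1 and CARS1 were called lower and LSP1 higher, and no other tested gene there was called. Of the 30 other listed genes there, PIDD1, CRACR2B and ENSSSCG00000041954 were under the filter, and the rest were tested. CARS1 was at 4.56 FPKM in the sham mean and 2.61 FPKM in the DAC mean (adjusted P = 0.335 from limma). CTSD was at 198 FPKM in the sham mean and 132 FPKM in the DAC mean (adjusted P = 0.379 from limma). KCNQ1 was at 34.4 FPKM in the sham mean and 27.8 FPKM in the DAC mean (adjusted P = 0.555 from limma). Over all genes tested, 5.27% were called lower and 3.25% higher.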
